A study of Mus musculus with 6 samples.

Results

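A group of 10 genes of fibroblast growth factor (FGF) signalling was followed in cultured muscle satellite cells (SCs), the stem cells of adult skeletal muscle. They comprise the ligands Fgf2 and Fgf7, the 4 FGF receptors Fgfr1, Fgfr2, Fgfr3 and Fgfr4, and the inhibitors Spry1, Spry2, Spry4 and Spred1. They were taken by name from the 35976 genes of the deposited tables. RNA-seq was performed on SCs of NF-YA cKO mice and NF-YA fl/fl mice, with 3 libraries per genotype. The sources used here do not say how many mice went into a library. The aim was to find out which genes depend on NF-YA, the subunit of the transcription factor NF-Y that recognises the CCAAT box. Both genotypes carry floxed Nfya alleles, and in NF-YA cKO mice a tamoxifen-dependent Cre recombinase expressed from Pax7, a gene of satellite cells, deletes them. All mice received tamoxifen at 20 mg/ml at 5 to 7 weeks of age per the labels. Mice were injected 5 times, and SCs were isolated 7 days after the last injection. SCs were enriched by magnetic removal of cells with CD31, CD45, CD11b or Sca1, and were kept for 4 days in growth medium that contains human FGF-2 protein in both genotypes.

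FGFs are secreted proteins that bind, together with heparan sulfate chains, to receptor tyrosine kinases of the FGFR family. The active receptors recruit adaptors that switch on Ras and the ERK kinase cascade, and Sprouty and Spred proteins act back on this cascade as inhibitors. In skeletal muscle FGF2 is known as a mitogen of SCs, and Spry1 is known for its expression in quiescent SCs and its role in their return to quiescence.

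Among the 10 genes, the receptor Fgfr3 and the inhibitor Spry1 had lower levels in SCs of NF-YA cKO mice, and none was called higher. A gene was called when its false discovery rate (FDR, the p-value of edgeR's quasi-likelihood test adjusted by Benjamini-Hochberg over all genes tested) was under 0.01 and its log2 fold change was beyond 1 in either direction. All 10 genes passed the filter of more than 10 counts in at least 2 libraries. Thus 2 of 10 were called lower and 0 of 10 higher, where 7.67% and 4.65% of the 17348 tested genes were called lower and higher. At an unadjusted p under 0.05, with no fold limit, edgeR gave 1 gene higher (Spred1) and 4 lower, while DESeq2 called 0 higher and 3 lower (Fgfr4 besides Fgfr3 and Spry1). Among all genes DESeq2 called 986 higher and 1804 lower. No count over all genes was taken at an unadjusted p, here or below. Over the 10 genes the log2 fold changes had a median of -0.28, and over all genes tested of -0.02. The levels below are given as CPM, counts scaled to a common library size after TMM normalization, for comparisons between libraries, and as TPM, a unit that is also scaled to transcript length, for comparisons between genes.

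The promoters of Spry1, Fgfr3 and Fgf7 are shown first, since NF-Y binds the CCAAT box and these are the genes with that word near their start. RefSeq windows of 300 bases, from 250 before to 50 after the start (GRCm38.p6), were matched for 8 of the 10 genes. The letters CCAAT, or ATTGG for the same word on the other strand, occur in the windows of 3 of these 8 genes. Of all 27025 genes with a window, 41.1% hold a match. The 250 bases before the start are printed 5′ to 3′ in the direction of the gene, with the match in capitals. The match begins 244 bases before the start in Spry1 (chr3:37639697-37639946, plus strand), 188 before it in the upstream one of 2 windows of Fgfr3 (chr5:33721474-33721723, plus strand), and 53 before it in Fgf7 (chr2:126034408-126034657, plus strand).
Spry1: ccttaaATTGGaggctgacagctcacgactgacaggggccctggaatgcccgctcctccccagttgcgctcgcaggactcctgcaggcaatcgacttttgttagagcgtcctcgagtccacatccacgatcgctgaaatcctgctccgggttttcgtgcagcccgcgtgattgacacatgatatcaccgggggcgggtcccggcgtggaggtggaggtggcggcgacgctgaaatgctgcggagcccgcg
Fgfr3: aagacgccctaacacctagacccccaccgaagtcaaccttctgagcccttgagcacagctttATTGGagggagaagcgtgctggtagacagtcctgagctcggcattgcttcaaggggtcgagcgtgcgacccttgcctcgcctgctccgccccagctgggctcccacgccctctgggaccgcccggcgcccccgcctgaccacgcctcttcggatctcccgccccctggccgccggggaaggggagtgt
Fgf7: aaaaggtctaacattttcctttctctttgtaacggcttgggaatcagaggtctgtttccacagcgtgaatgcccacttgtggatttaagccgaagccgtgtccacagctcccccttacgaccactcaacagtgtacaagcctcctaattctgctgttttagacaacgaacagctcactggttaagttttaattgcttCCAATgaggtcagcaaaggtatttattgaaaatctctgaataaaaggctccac
The windows of Fgfr2, Fgfr4, Fgf2, Spry2 and Spred1 and the downstream window of Fgfr3 held neither CCAAT nor ATTGG. A match is a description of the letters, and binding of NF-Y there was not measured by these data.

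The libraries held between 26936230 and 41118984 expected counts. As a check of the labels, a transcript entry for the deleted Nfya allele took 27.2% to 40.5% of Nfya TPM in the NF-YA cKO libraries and 0% in each NF-YA fl/fl library, while Nfya as a whole showed a log2 difference of -0.06 ± 0.18 (SE). Not all cells of the NF-YA cKO cultures need carry the deletion. Xist, expressed from the inactive X chromosome, was between 836 and 852 CPM in NF-YA cKO libraries and at or below 0.475 CPM in the NF-YA fl/fl libraries. Ddx3y of the Y chromosome was at or below 0.0957 CPM and between 81.0 and 88.6 CPM, respectively, so that sex and genotype cannot be told apart in any comparison here. NF-YA fl/fl replicate 3 stood apart from the other replicates of its genotype for several of the 10 genes, which is described with those genes. In these bulk cultures fewer cells of a type and less RNA per cell cannot be told apart. The p-values of edgeR set the genotype difference against the spread between 3 cultures per genotype, estimated in part from all genes tested.

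**Figure D1:**
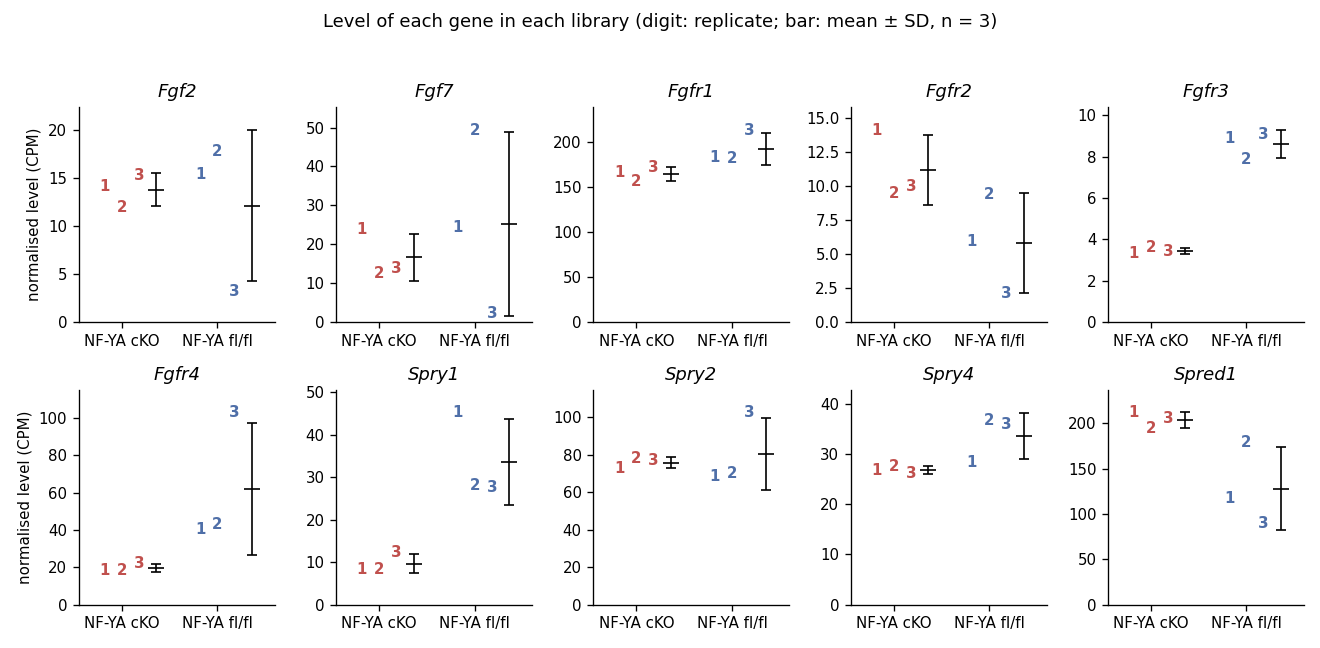
Normalised level (CPM, linear axes from 0) of the 10 genes in each of the 6 libraries. Digits give the replicate of NF-YA cKO libraries (red) and NF-YA fl/fl libraries (blue), and bars give the mean ± SD of 3 libraries. For Fgfr3, Fgfr4 and Spry1 all NF-YA cKO libraries lie well below all NF-YA fl/fl libraries, and NF-YA fl/fl replicate 3 is the lowest of its genotype for Fgf2, Fgf7, Fgfr2 and Spred1.

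The ligands did not pass the test, and their NF-YA fl/fl libraries were far apart. Fgf2 (chr3:37348477-37410106), the basic FGF that is also supplied as human protein in the medium, was at 14.2, 11.9 and 15.3 CPM in NF-YA cKO replicates 1, 2 and 3. In the NF-YA fl/fl replicates it was at 15.4, 17.8 and 3.19 CPM. NF-YA fl/fl replicate 3 thus lay below all other libraries, and the genotypes overlapped. Its log2 fold change was 0.18 ± 0.54 (SE), with an FDR of 0.813 by the quasi-likelihood test of edgeR with Benjamini-Hochberg adjustment. Without NF-YA fl/fl replicate 3 it turned to -0.28, with an edgeR FDR of 0.147 against a range of 0.147 to 1 over all alternatives.

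Fgf7 (chr2:126034658-126091185), the keratinocyte growth factor made by mesenchymal cells, was the most variable of the 10 genes. It was at 23.7, 12.5 and 13.6 CPM in NF-YA cKO and at 24.4, 49.3 and 2.07 CPM in the NF-YA fl/fl replicates 1, 2 and 3. The highest and the lowest library were thus both NF-YA fl/fl, 23.8-fold apart, where NF-YA cKO libraries spanned 1.89-fold. The log2 fold change of -0.61 ± 0.88 (SE) did not pass the test (FDR 0.613 by edgeR with Benjamini-Hochberg adjustment), and it was 0.32 without NF-YA fl/fl replicate 2 and -1.16 without NF-YA fl/fl replicate 3.

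Of the receptors, Fgfr1 was the most abundant by TPM. Fgfr1 (chr8:25518759-25575718), the main FGF2 receptor of SCs, was at 166, 156 and 172 CPM in NF-YA cKO and at 183, 182 and 214 CPM in the NF-YA fl/fl libraries. All NF-YA cKO libraries lay below all NF-YA fl/fl libraries, by a small margin. Its log2 fold change of -0.22 ± 0.10 (SE) had an FDR of 0.120 in the quasi-likelihood test of edgeR with Benjamini-Hochberg adjustment.

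Fgfr2 (chr7:130162451-130266808), whose epithelial splice form is the receptor of FGF7, was at 14.1, 9.41 and 9.96 CPM in NF-YA cKO and at 5.92, 9.40 and 2.07 CPM in the NF-YA fl/fl libraries. The lowest NF-YA cKO and the highest NF-YA fl/fl library were nearly equal, and NF-YA fl/fl replicate 3 was again the lowest. By TPM, Fgfr2 overlapped between genotypes, at 1.79 to 3.19 in NF-YA cKO and 0.37 to 2.58 in NF-YA fl/fl libraries. Its log2 fold change of 0.94 ± 0.49 (SE) did not pass the test (FDR 0.171 by edgeR with Benjamini-Hochberg adjustment).

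Fgfr3 (chr5:33721724-33737068), a receptor best known for restraining growth of the skeleton, was the least abundant receptor in NF-YA cKO SCs. It was at 3.32, 3.60 and 3.43 CPM in NF-YA cKO and at 8.91, 7.85 and 9.09 CPM in the NF-YA fl/fl libraries. The genotypes were far apart and the replicates close together, including NF-YA fl/fl replicate 3. Fgfr3 fell by 1.32 ± 0.15 (SE) on the log2 scale, a level 2.50-fold lower in NF-YA cKO SCs, with an FDR of 0.00132 in the quasi-likelihood test of edgeR with Benjamini-Hochberg adjustment. The call was narrowly lost with 1 NF-YA cKO library fewer, at edgeR FDRs of 0.0105, 0.0108 and 0.0102 without replicates 1, 2 and 3, while the log2 fold change stayed between -1.39 and -1.28 on leaving out any library. The FDR ranged from 3.74e-13 to 0.111 over all alternatives. Each library holds 104 to 268 counts of Fgfr3.

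Fgfr4 (chr13:55152818-55168759), the receptor characteristic of myoblasts, was at 18.4, 18.5 and 22.0 CPM in NF-YA cKO and at 40.4, 43.2 and 102.9 CPM in the NF-YA fl/fl libraries. All NF-YA cKO libraries lay below all NF-YA fl/fl libraries, and NF-YA fl/fl replicate 3 was 2.38-fold above the next. Its log2 fold change was -1.66 ± 0.37 (SE), and the FDR of 0.0126 by edgeR with Benjamini-Hochberg adjustment missed the threshold. Without NF-YA fl/fl replicate 3 the log2 fold change was smaller, at -1.09, and passed with an edgeR FDR of 0.000523. Over all alternatives the FDR ranged from 3.23e-05 to 0.178.

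The mixture of receptors was described by TPM. Of the summed TPM of the 4 receptors, Fgfr1 took 79.9%, 79.9% and 79.9% in NF-YA cKO replicates 1, 2 and 3 and 71.8%, 70.4% and 58.4% in the NF-YA fl/fl replicates. Fgfr4 took 12.7%, 14.1% and 14.5% in NF-YA cKO and 22.6%, 23.4% and 38.7% in NF-YA fl/fl libraries. The share of Fgfr4 was thus lower and that of Fgfr1 higher in each NF-YA cKO library than in any NF-YA fl/fl library. Fgfr3 took 1.79% ± 0.17 (SD, n = 3) in NF-YA cKO and 3.10% ± 0.56 in NF-YA fl/fl, and Fgfr2 4.56% ± 1.02 and 1.82% ± 1.31. These shares were chosen after the values were seen and are given without a test.

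**Figure D2:**
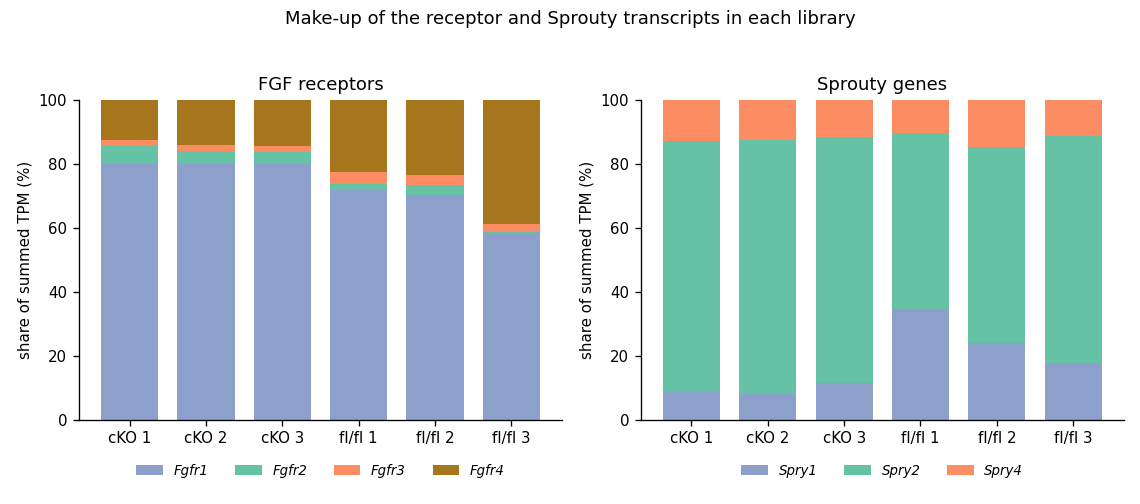
Share of the summed TPM (%) of the 4 FGF receptors (left) and the 3 Sprouty genes (right) in each library, with replicates 1 to 3 for each genotype (cKO and fl/fl). Fgfr4 takes 12.7% to 14.5% of the receptor TPM in NF-YA cKO and 22.6% to 38.7% in NF-YA fl/fl libraries, and Spry1 takes 8.07% to 11.5% and 17.8% to 34.6% of the Sprouty TPM.

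Among the inhibitors, Spry1 was called and the others were not. Spry1 (chr3:37639947-37644599), the Sprouty gene tied to SC quiescence, was at 8.32, 8.35 and 12.2 CPM in NF-YA cKO and at 45.1, 28.0 and 27.5 CPM in the NF-YA fl/fl libraries. The highest NF-YA cKO library was far below the lowest NF-YA fl/fl library. Spry1 fell by 1.80 ± 0.26 (SE) on the log2 scale, to a level 3.48-fold lower, with an FDR of 0.00258 in the quasi-likelihood test of edgeR with Benjamini-Hochberg adjustment. The log2 fold change stayed between -2.04 and -1.53 on leaving out any library, and the call was lost without NF-YA cKO replicate 1 (edgeR FDR of 0.0143) or replicate 2 (edgeR FDR of 0.0179). The FDR ranged from 9.71e-10 to 0.0360 over all alternatives.

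Spry2 (chr14:105891947-105896819), the most abundant Sprouty gene, was at 72.5, 78.1 and 76.8 CPM in NF-YA cKO and at 68.7, 69.9 and 102.5 CPM in the NF-YA fl/fl libraries. The genotypes overlapped, with a log2 fold change of -0.08 ± 0.17 (SE; FDR 0.715 by edgeR with Benjamini-Hochberg adjustment). Without NF-YA fl/fl replicate 3, the highest library, the log2 fold change was 0.12.

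Spry4 (chr18:38586247-38601347), a Sprouty gene induced by ERK activity, was at 26.7, 27.6 and 26.2 CPM in NF-YA cKO and at 28.4, 36.8 and 35.9 CPM in the NF-YA fl/fl libraries. All NF-YA cKO libraries were below all NF-YA fl/fl libraries, but replicate 1 of both genotypes lay close. A log2 fold change of -0.33 ± 0.12 (SE) had an FDR of 0.0768 by edgeR with Benjamini-Hochberg adjustment.

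Spred1 (chr2:117121071-117182279), which brings neurofibromin to the membrane to switch off Ras, was at 212, 194 and 205 CPM in NF-YA cKO and at 117, 178.5 and 89.1 CPM in the NF-YA fl/fl libraries. On this scale all NF-YA cKO libraries were higher. On the TPM scale, they lay between 31.6 and 40.4 and the NF-YA fl/fl libraries between 14.5 and 43.3, so that the genotypes overlapped. With a log2 fold change of 0.67 ± 0.24 (SE), Spred1 had an FDR of 0.0634 by edgeR with Benjamini-Hochberg adjustment.

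In the summed TPM of Spry1, Spry2 and Spry4, Spry1 took 8.64%, 8.07% and 11.5% in NF-YA cKO and 34.6%, 23.9% and 17.8% in NF-YA fl/fl replicates 1, 2 and 3. Every NF-YA cKO library held a smaller share of Spry1 than any NF-YA fl/fl library. Spry2 took 78.3% ± 1.3 (SD, n = 3) and 62.6% ± 7.9, and Spry4 12.3% ± 0.6 and 12.0% ± 2.3, in the first and the second genotype. As for the receptors, these shares were chosen after the values were seen and were not tested.

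**Figure D3:**
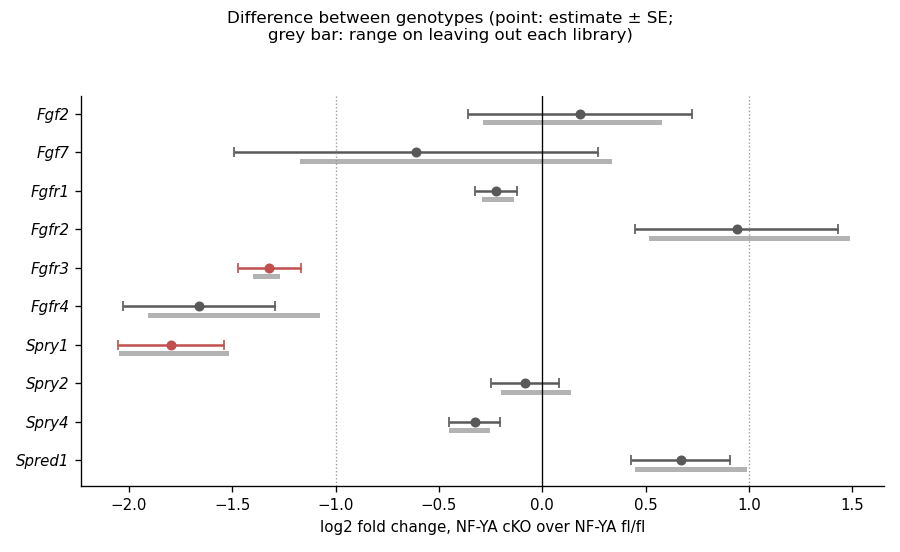
Log2 fold change of the 10 genes, NF-YA cKO over NF-YA fl/fl, from the fit over all genes (points, with SE; red where called) and its range on leaving out each of the 6 libraries (grey bars). Dotted lines mark the fold limits. Fgfr3 (-1.32) ranges from -1.39 to -1.28 and Spry1 (-1.80) from -2.04 to -1.53, both beyond the fold limit. Fgfr4 (-1.66) reaches from -1.90 to -1.09, and the ranges of Fgf2, Fgf7 and Spry2 cross 0.

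Over the 10 genes, CPM did not overlap between genotypes in 7. NF-YA cKO libraries were all lower for 5 genes (Fgfr1, Fgfr3, Fgfr4, Spry1 and Spry4). They were all higher for 2 (Fgfr2 and Spred1), both of which overlapped on the TPM scale. Of all genes tested, 26.2% were lower and 29.1% higher in every NF-YA cKO library. The NF-YA cKO libraries were more alike, with a highest to lowest ratio of 1.06 for Spry4 up to 1.89 for Fgf7, than the NF-YA fl/fl libraries, where the ratio ran from 1.16 for Fgfr3 to 23.8 for Fgf7.

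By TPM, the order of the genes in NF-YA cKO SCs was Fgfr1 (41.6 ± 5.1, SD, n = 3), Spry2 (41.1 ± 2.4), Spred1 (36.7 ± 4.6), Fgf2 (25.3 ± 4.8), Fgf7 (7.17 ± 3.13), Fgfr4 (7.15 ± 0.92), Spry4 (6.46 ± 0.40), Spry1 (4.99 ± 1.32), Fgfr2 (2.39 ± 0.72) and Fgfr3 (0.927 ± 0.032). Neighbours in this order did not differ beyond their spread among Fgfr1, Spry2 and Spred1, nor among Fgf7, Fgfr4, Spry4 and Spry1. In NF-YA fl/fl SCs the order began likewise with Fgfr1 (52.9 ± 6.1), Spry2 (45.0 ± 5.2), Spred1 (26.9 ± 14.8) and Fgf2 (25.5 ± 18.9). Fgfr4 (22.7 ± 9.0) and Spry1 (18.4 ± 6.1) followed, ahead of Fgf7 (12.9 ± 13.2) and Spry4 (8.69 ± 2.30), and Fgfr3 (2.44 ± 0.29) and Fgfr2 (1.44 ± 1.11) came last. Only Fgfr1 over Spry2 and Spry4 over Fgfr3 were neighbours whose libraries did not overlap in NF-YA fl/fl. The receptor Fgfr4 and the inhibitor Spry1 thus ranked above Fgf7 by mean TPM in NF-YA fl/fl and below it in NF-YA cKO SCs. This order of means did not hold in each library. Fgfr4 was at 7.04, 6.28 and 8.12 TPM in NF-YA cKO replicates 1, 2 and 3, and Fgf7 at 10.7, 4.82 and 5.97 TPM. In NF-YA fl/fl replicate 2, Fgf7 (26.9 TPM) was above both Fgfr4 (19.9 TPM) and Spry1 (18.6 TPM).

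The genes that varied most among NF-YA fl/fl libraries were set beside cell type markers. The 9 markers of fibro-adipogenic progenitors, the mesenchymal cells of muscle, summed to 2264, 2892 and 1073 CPM in the NF-YA fl/fl replicates 1, 2 and 3 and to between 1951 and 2353 CPM in NF-YA cKO libraries. None of the 9 was at 0 in all libraries, and edgeR called 1 higher (Lum, log2 fold change 2.98) and 0 lower. The summed level in NF-YA fl/fl replicate 3 was thus the lowest of all, as were those of Fgf2, Fgf7 and Fgfr2. Pdgfra, the receptor that defines these cells and that was singled out after its values were seen, was at 132, 146.5 and 21.6 CPM in the NF-YA fl/fl libraries and at 104, 77.7 and 84.1 CPM in NF-YA cKO libraries. The abundant collagens Col1a1 and Col3a1 and the proteoglycan Dcn were also lowest in replicate 3 within NF-YA fl/fl, at 352, 682.5 and 9.26 CPM. Dcn was higher in NF-YA cKO, at 76.3, 68.3 and 72.8 CPM against 28.8, 28.3 and 9.26 CPM, with a log2 fold change of 1.71 ± 0.39 and an edgeR FDR of 0.0145. These 9 markers did not move one way, with a median log2 fold change of -0.18. Ly6a, named after its values were seen, was at 5.10, 3.475 and 3.13 CPM in NF-YA cKO against 18.5, 26.9 and 2.85 CPM. Its log2 fold change was -2.05 ± 0.71 (SE; edgeR FDR 0.059), and that of Col3a1 was -0.57 ± 0.22. The share of these cells in the values of Fgf2, Fgf7 and Fgfr2 was not tested.

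The 9 markers of SCs and myoblasts summed to 2815, 2239 and 3908 CPM in the NF-YA fl/fl replicates 1, 2 and 3 and to between 1458 and 1644 CPM in NF-YA cKO libraries, with 2 of 8 tested called lower and 0 higher (edgeR). The list did not move one way. Pax7, the defining factor of SCs, was higher in each NF-YA cKO library, at 146, 165 and 201 CPM against 73.5, 87.5 and 105 CPM (log2 fold change 0.94 ± 0.17, SE, short of the fold limit; FDR 0.00624 by edgeR with Benjamini-Hochberg adjustment), and so was the adhesion molecule Vcam1, with a log2 fold change of 0.86 ± 0.18, both singled out after their values were seen. The summed level and Fgfr4 were both highest in NF-YA fl/fl replicate 3. Of the abundant markers, the myogenic factor Myod1 was at 361, 295 and 1146 CPM in the NF-YA fl/fl libraries and at 509.5, 627 and 565 CPM in NF-YA cKO libraries. The laminin receptor Itga7 was at 586, 414 and 894 CPM in the NF-YA fl/fl libraries and at 255.5, 245 and 298 CPM in NF-YA cKO libraries. The intermediate filament gene Des fell by 2.09 ± 0.14 (SE) on the log2 scale (FDR 0.000218 by edgeR with Benjamini-Hochberg adjustment). The part of this in the difference of Fgfr4, Fgfr3 or Spry1 was not tested.

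**Figure D4:**
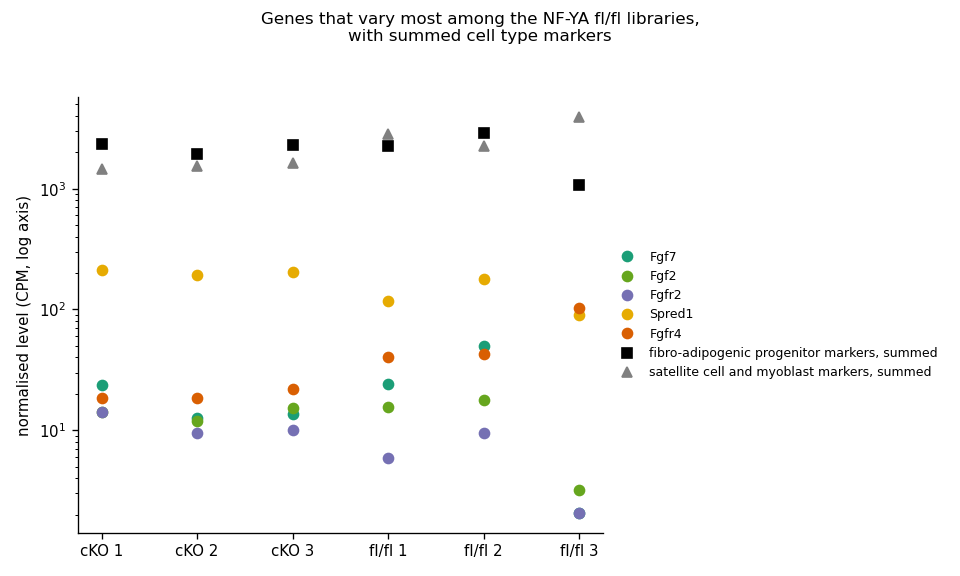
Level (CPM, log axis) of the 5 genes whose NF-YA fl/fl libraries were farthest apart (circles) and summed CPM of markers of fibro-adipogenic progenitors (squares) and of SCs and myoblasts (triangles) in each library. In NF-YA fl/fl replicate 3, Fgf7, Fgf2 and Fgfr2 drop to 2.07, 3.19 and 2.07 CPM with the progenitor markers at 1073 CPM, and Fgfr4 is highest at 102.9 CPM with the myoblast markers at 3908 CPM.

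Markers of other cells also differed. The 8 markers of differentiated muscle detected summed to between 8878 and 11820 CPM in the NF-YA fl/fl libraries and to between 45.4 and 125 CPM in NF-YA cKO libraries, and all 8 were called lower. The 9 macrophage markers summed to between 5.73 and 15.5 CPM in the NF-YA fl/fl libraries and to between 142 and 277 CPM in NF-YA cKO libraries, with 8 called higher. Most of this was the lysozyme gene Lyz2, at 190, 203 and 101 CPM in NF-YA cKO libraries. Schwann cell markers summed to between 79.1 and 87.8 CPM in NF-YA cKO and to between 21.5 and 75.3 CPM in the NF-YA fl/fl libraries, with 5 of 7 called higher. Pericyte and smooth muscle markers summed to between 233 and 327 CPM in NF-YA cKO and to between 252 and 730.2 CPM in the NF-YA fl/fl libraries, with 1 of 6 tested called lower. The 7 endothelial markers summed to between 21.6 and 25.2 CPM in NF-YA cKO and to between 14.4 and 20.1 CPM in the NF-YA fl/fl libraries, with 1 called higher (Kdr, log2 fold change 2.67) and 1 lower (Vwf, log2 fold change -1.42), both named after their values were seen. Whether these cells had a part in the difference of Fgfr3 and Spry1 was not tested.

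Other genes of the pathway were taken from a list of 87, of which 76 were tested. Of these, 4 were called higher and 8 lower in NF-YA cKO SCs, against 4.65% and 7.67% of all genes, and the median log2 fold change was -0.09. Among 20 other genes of the FGF family, 12 passed the filter, 4 were called lower and 0 higher, with a median log2 fold change of -1.26. Without the intracellular members Fgf11, Fgf12, Fgf13 and Fgf14, which are not receptor ligands, 3 of 9 tested were called lower, with a median of -1.22. Of all 12 tested genes of the family, DESeq2 called 6 lower and 1 higher. At an unadjusted p under 0.05 edgeR gave 8 lower and 1 higher. The most abundant by TPM over both genotypes was Fgf21, a hormone-like FGF known to be induced in muscle under stress. Fgf21 was at 1.08, 1.23 and 2.07 CPM in NF-YA cKO and at 35.7, 19.6 and 25.1 CPM in the NF-YA fl/fl libraries, and fell by 4.18 ± 0.34 (SE) on the log2 scale (FDR 0.000390 by edgeR with Benjamini-Hochberg adjustment). Fgf6, a FGF of the muscle lineage, had 0 counts in all NF-YA cKO libraries and 14, 44 and 45 counts in NF-YA fl/fl libraries. Against a floor of 3 counts per library it was at least 14.1-fold lower in NF-YA cKO (FDR 0.00392 by edgeR with Benjamini-Hochberg adjustment). This call was kept in 13 alternatives and lost in 6, among them each fit with 1 NF-YA cKO library fewer. Fgf9, a secreted FGF, fell by 3.18 ± 0.32 (SE) and Fgf13, which acts inside the cell and is not a receptor ligand, by 1.97 ± 0.35 on the log2 scale (FDR 0.000827 and 0.00546 by edgeR with Benjamini-Hochberg adjustment).

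At the cell surface, 10 of 13 coreceptor and decoy receptor genes were tested, and 1 was called lower and 0 higher (DESeq2 called 1 in each direction, and edgeR gave 4 in each at an unadjusted p under 0.05). The glypican Gpc4, a heparan sulfate proteoglycan, was at 39.4, 35.2 and 32.1 CPM in NF-YA cKO and at 95.3, 74.3 and 99.6 CPM in the NF-YA fl/fl libraries (log2 fold change -1.34 ± 0.14, SE; FDR 0.000987 by edgeR with Benjamini-Hochberg adjustment). The most abundant by TPM over both genotypes, the glypican Gpc1, had a log2 fold change of -0.89 ± 0.18 and an edgeR FDR of 0.00803, short of the fold limit. The syndecan Sdc4, the most abundant in NF-YA cKO SCs at a mean of 104.7 TPM and named after its values were seen, lay in the other direction, with a log2 fold change of 0.80 ± 0.13 and an edgeR FDR of 0.00446. Of 7 genes that build or edit heparan sulfate and 9 adaptors, edgeR and DESeq2 called 0. At an unadjusted p under 0.05, edgeR gave 3 lower of the former and 1 lower of the latter. Ext1, a heparan sulfate polymerase, and Ptpn11, the phosphatase SHP2 that relays receptor signals, were the most abundant of these roles, with log2 fold changes of 0.13 ± 0.34 and -0.04 ± 0.08 (SE). In the Ras-ERK cascade 1 of 13 genes was called lower. This was Ksr1, a scaffold of the cascade, which fell by 1.23 ± 0.11 (SE) on the log2 scale (FDR 0.000466 by edgeR with Benjamini-Hochberg adjustment), whereas the most abundant gene, the ERK kinase Map2k1, had a log2 fold change of -0.10 ± 0.14.

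Of 15 other inhibitors, 2 were called higher and 1 lower. Dusp9 and Dusp4, phosphatases that inactivate ERK, rose by 2.65 ± 0.24 and 1.07 ± 0.12 (SE) on the log2 scale (FDR 0.000546 and 0.00125 by edgeR with Benjamini-Hochberg adjustment). Dusp9 was at 25.2, 34.6 and 28.0 CPM in NF-YA cKO and at 5.35, 5.41 and 3.22 CPM in the NF-YA fl/fl libraries, with no overlap. The gene called lower, Flrt1, codes for a membrane protein that binds FGF receptors and is not chiefly known as an inhibitor, and it fell by 1.502 ± 0.22. The most abundant, the Ras GTPase activator Rasa1, had a log2 fold change of 1.009 ± 0.22 and an edgeR FDR of 0.0120. Dusp6 and Dusp5, ERK phosphatases singled out after their values were seen, had log2 fold changes of 0.65 ± 0.16 and 1.58 ± 0.41 with edgeR FDRs of 0.0194 and 0.0225.

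Among 10 genes known to be induced by ERK signalling, 2 were called higher and 1 lower. Ccnd1, the G1 cyclin, was at 535, 651 and 534 CPM in NF-YA cKO and at 179, 340.4 and 263 CPM in the NF-YA fl/fl libraries and rose by 1.14 ± 0.23 (SE) on the log2 scale (FDR 0.00936 by edgeR with Benjamini-Hochberg adjustment). The ETS factors Etv4 and Etv1 were called in opposite directions, at 1.51 ± 0.24 and -1.40 ± 0.23 on the log2 scale. The immediate early genes Fosl1, Egr1 and Fos, singled out after their values were seen, had log2 fold changes of 0.999 ± 0.17, -1.32 ± 0.34 and -1.35 ± 0.35 and were not called. Their edgeR FDRs were 0.00469, 0.0228 and 0.0223, so that Fosl1 missed only the fold limit and Egr1 and Fos only the FDR threshold. The call of Ccnd1 was kept in 8 alternatives and lost in 11, and those of Etv4 and Etv1 were each kept in 12 and lost in 7. Fgf13 and Dusp4 lost theirs in 5 alternatives, Flrt1 in 6, Fgf9, Gpc4 and Ksr1 in 1, and Fgf21 and Dusp9 in 0. The counts of the list depended on single libraries. Without NF-YA cKO replicate 1, 2 or 3, or NF-YA fl/fl replicate 1, the number called higher was 2, 1, 2 or 1, and without NF-YA cKO replicate 1, 2 or 3 the number called lower was 4, 4 or 5.

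**Figure D5:**
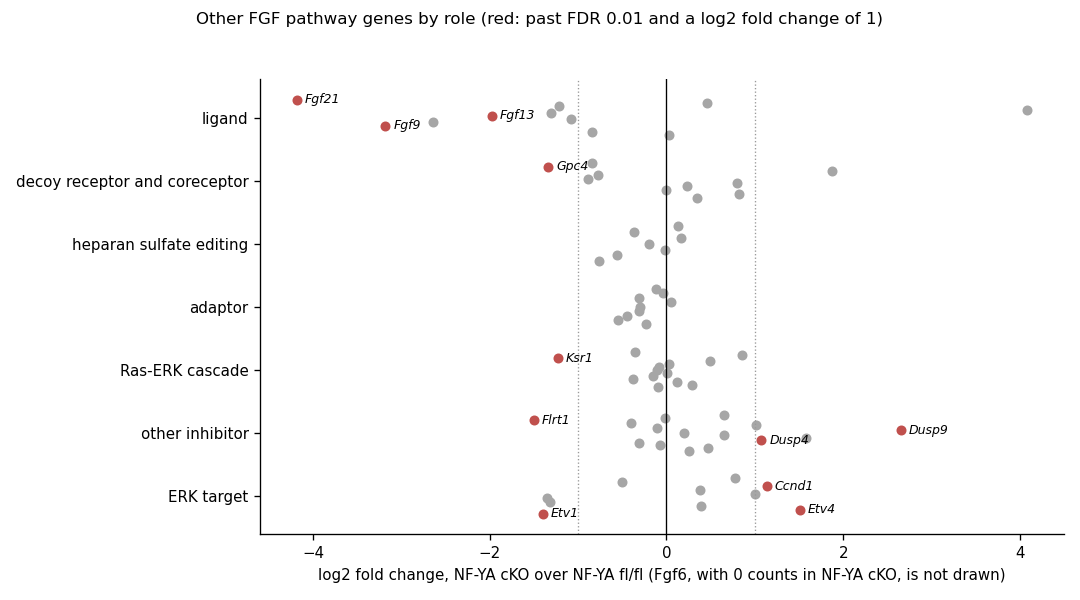
Log2 fold change, NF-YA cKO over NF-YA fl/fl, of the tested genes of the list of other FGF pathway genes by role (red and named where called, grey otherwise; Fgf6, with 0 counts in NF-YA cKO, is not drawn). Dotted lines mark the fold limits. Genes of the role ligand lie mostly to the left, with Fgf21 at -4.18, and the adaptors lie near 0.

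Fgf2 and Spry1 lie 230 kb apart on chromosome 3 in GRCm38, with Spata5 between them, and their neighbours were read for comparison. The AAA ATPase gene Spata5 was at 64.5, 67.0 and 62.7 CPM in NF-YA cKO and at 49.0, 53.8 and 46.2 CPM in the NF-YA fl/fl libraries (log2 fold change 0.38 ± 0.09, SE; FDR 0.0177 by edgeR with Benjamini-Hochberg adjustment). Bbs12, a chaperonin-like gene on the other side of Fgf2, rose by 1.08 ± 0.22 (FDR 0.00992 by edgeR with Benjamini-Hochberg adjustment), a call kept in 4 of 17 alternatives and lost in the others. Gm5148, beyond Spry1, had at most 2.38 counts in a library. Neither Spata5 nor Bbs12 was lower in NF-YA cKO SCs, as Spry1 was.

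Genes on the opposite strand overlap some of the 10 genes, and the strand setting of the authors' counting is not given in the sources used here. Nudt6 overlaps the end of Fgf2 and was at 20.15, 15.1 and 20.5 CPM in NF-YA cKO and at 17.97, 19.9 and 5.94 CPM in the NF-YA fl/fl libraries. Like Fgf2, it was lowest in NF-YA fl/fl replicate 3. Fgf2os, at the start of Fgf2, was also lowest there, at 0.882 CPM. The span of Fgf2 shares 5125 bases with Nudt6 and 1365 bases with Fgf2os. Reads of the shared stretches cannot be told apart if strand was not used. Fam227b, which spans Fgf7, had at most 1.01 counts in a library. Within Fgfr1, the noncoding RNA Gm31288, whose strand is not given in the sources used here, was between 13.5 and 31.8 CPM and Gm16159 at or below 1.10 CPM.

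The transcript make-up of the genes was compared by the percent of a gene's TPM that each transcript takes, an estimate of the authors' software. Of 23 transcripts with a share of at least 10% in a genotype, the genotypes did not overlap in 9, where 25.1% of all 20456 transcripts that met the same limits did not. With 3 libraries against 3, a two-sided exact permutation test cannot give a p below 0.1, and these 9 reached 0.1 (0.256 after Benjamini-Hochberg adjustment over the 23). In Spry1, the transcript of 2204 nt took 78.8%, 74.2% and 85.1% in NF-YA cKO and 65.3%, 49.2% and 60.1% in NF-YA fl/fl libraries. Its mean TPM was nonetheless lower in NF-YA cKO, at 4.003, than in NF-YA fl/fl, at 10.8.

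In Spred1, the short transcript of 2007 nt took 4.88%, 5.05% and 6.01% in NF-YA cKO and 10.6%, 12.3% and 9.93% in NF-YA fl/fl libraries, with the rest in the transcript of 6319 nt. The shares of the short form in NF-YA cKO were thus all below those in NF-YA fl/fl. In Fgfr4, the minor transcript of 3042 nt took 5.55%, 3.51% and 5.04% in NF-YA cKO and 11.7%, 15.6% and 8.40% in NF-YA fl/fl libraries, while the main one of 3146 nt overlapped between genotypes. Fgf2 kept nearly the same division, with 77.8% ± 0.7 (SD, n = 3) of its TPM in the 695 nt transcript in NF-YA cKO and 76.7% ± 1.3 in NF-YA fl/fl. Fgfr3 counts were split over 28 transcripts and single shares ran from 0% to 61.6% within a genotype, so that each rests on few counts. The transcript of 4222 nt, among the 9 without overlap, took 57.6%, 23.9% and 31.2% in NF-YA cKO and 0%, 0% and 0.24% in NF-YA fl/fl libraries, and its share in either genotype is uncertain to the same degree. Fgf7 and Spry4 have 1 transcript each in the files.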

How the data were processed

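Stranded total RNA-seq of SCs gave 6 libraries, 3 from NF-YA cKO mice and 3 from NF-YA fl/fl mice. Each library was assigned to its genotype and replicate by its label. Reads had been mapped by the authors with bowtie2 on mouse transcripts (mm10), and RSEM gave the deposited expected counts per gene, which carry no normalization. RSEM divides a read among the transcripts it matches, so that values of overlapping genes and of single transcripts are estimates. TPM, as deposited by the authors, is scaled to transcript length and to the same total in each library, and so holds no record of depth. The deposited transcript tables also hold the percent of a gene's TPM taken by each transcript. The authors tested genes with DESeq2, used here as an alternative.

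Expected counts were rounded. Genes entered the test when 2 libraries or more exceeded 10 counts, which left 17348. These were fitted with edgeR 4.0.16 in R 4.3.3 by genotype alone (TMM scaling, quasi-likelihood test, p-values adjusted by Benjamini-Hochberg over all tested genes). Calls needed an FDR under 0.01 together with a log2 fold change beyond 1 in either direction, as in the study's methods. SEs were obtained from the estimate and the F statistic. The fit was checked on simulated counts. Transcript shares were compared with exact two-sided permutation tests. Library totals were 26936230 to 41118984, and 3 counts equal 0.0705 to 0.115 CPM.

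The 10 genes, the list of 87 other pathway genes and the marker lists were chosen with earlier results of these data known. Named were the 10 genes, each called pathway gene, the gene of highest TPM in each role, overlapping and neighbouring genes, and up to 3 abundant markers a list. The marker Mymk was not analysed here. Coordinates and promoters are from RefSeq (GRCm38.p6). As alternatives served DESeq2 1.42.0, edgeR with DESeq2 size factors, no TMM, the upper quartile, filterByExpr, no filter, limma 3.58.1 on log2(TPM + 1) and log2(TPM + 0.1), counts not rounded, other thresholds, a test against the fold limit (glmTreat), a replicate block and leaving out each library.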

Additional observations from a re-analysis of the deposited data

How the results depend on the processing

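Of 190 fold changes of the 10 genes under alternative settings, 171 kept their direction and their side of the threshold, 8 were no longer called, 6 became called and 5 turned direction. The lost calls were 5 of Fgfr3 and 3 of Spry1, the genes called in the main fit. Settings that only change the thresholds reuse the main fit, so that no direction can turn and no call can be lost there. They are also among the alternatives counted above for the calls of pathway genes. On leaving out single libraries, the log2 fold changes ran between -0.28 (NF-YA fl/fl replicate 3 left out) and 0.56 for Fgf2, from -1.16 to 0.32 (without NF-YA fl/fl replicate 2) for Fgf7 and from -0.19 to 0.12 (without NF-YA fl/fl replicate 3) for Spry2, and, uncalled as well, from -0.20 to 0.43 for Ext1 and from -0.23 to 0.032 for Map2k1. Fgf7 was also at 0.11 in limma on log2(TPM + 0.1) and at 0.10 with the replicate block, and Ptpn11 at 0.0098 without TMM. Of the 10 genes, glmTreat called 0 lower (3 at an unadjusted p under 0.05), and leaving out single libraries gave 0 to 3 lower. Fgfr3 was also lost in limma on log2(TPM + 1), at a log2 fold change of -0.83, where a pseudocount of 1 is large beside its TPM. The genes called higher and lower numbered 806 and 1331 in edgeR, 231 and 704 in limma on log2(TPM + 1), 97 and 510 in glmTreat, and 177 to 890 and 523 to 1684 without single libraries. Limma on log2(TPM + 0.1) called 361 higher, an FDR under 0.01 with no fold limit 1787 higher, and an FDR under 0.05 called 2025 lower. Of the pathway list, 4 were called higher and 8 lower in edgeR, 1 and 5 in limma on log2(TPM + 1), 1 and 2 in glmTreat, and 1 to 6 and 4 to 12 without single libraries. The number called higher was 7 in DESeq2, 8 with no filter, 2 in limma on log2(TPM + 0.1), 8 at an FDR under 0.05 and 7 with no fold limit. The cause of these changes was not tested. The other scalings moved the median log2 fold change by under 0.1.

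With the replicate number as a block, 625 genes were called higher and 947 lower, and Fgfr3 and Spry1 stayed called. The samples share only a number: deviations of same-numbered libraries correlated at 0.224, -0.116 and 0.052 for replicates 1, 2 and 3, and not every library correlated best with its own number (NF-YA fl/fl replicate 3 did so with NF-YA cKO replicate 2, at 0.172). How far the spread between the 3 libraries of a genotype, and how far depth, limits these comparisons was not tested.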
